A study of Mus musculus with 10 samples.

Results

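Latent TGF-β binding proteins (LTBPs), fibrillins and their closest partners were examined as a set of 9 genes out of the 50763 genes in the count table of mouse lens epithelium. The genes were chosen by family and not by their values: Ltbp1, Ltbp2, Ltbp3 and Ltbp4, the fibrillin genes Fbn1 and Fbn2, the microfibril-associated genes Mfap2 and Mfap5, and Lrrc32, whose product anchors latent TGF-β at the cell surface. RNA-seq had been performed on lens epithelial explants of 3-week-old FVB/N mice, in 10 libraries: 3 wild-type (WT), 3 OVE853 and 4 OVE918. Both lines carry a human TGF-β1 transgene, made constitutively active and driven by the αA-crystallin promoter, a promoter active in lens cells. Each library was a pool of explants from up to 9 mice (WT and OVE853) or up to 7 mice (OVE918), males and females alike, and the explants of both transgenic lines bore anterior subcapsular plaques.

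TGF-β is secreted as a latent complex in which its own propeptide keeps it from its receptors. LTBP1, LTBP3 and LTBP4 bind that propeptide covalently and tether the complex to fibrillin microfibrils and fibronectin in the matrix, whereas LTBP2 lacks this binding and instead associates with fibrillin-1. Fibrillins are the backbone of microfibrils, which MAGP-1 (the product of Mfap2) and MAGP-2 (the product of Mfap5) decorate. In the eye, fibrillin microfibrils form the zonule, which suspends the lens from the ciliary body, and loss of FBN1, LTBP2 or ADAMTSL4 is a known cause of a displaced lens in people.

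Levels are given below as CPM, the count of a gene per 1000000 counts on the 11094 tested genes after TMM scaling. To set genes beside each other, FPKM was used, which is the same CPM per kilobase of exon. A gene was tested where 5 or more libraries reached 2 FPKM. For this filter alone, FPKM was taken without TMM scaling, from all counts of the library. It was called where the false discovery rate of edgeR's quasi-likelihood test (FDR, Benjamini-Hochberg over the 11094 genes) was 0.05 or less and the log2 fold change was 1 or more in either direction. Of the 9 genes, 6 passed this filter. Fbn2 and Lrrc32 passed only edgeR's own filterByExpr filter and were taken from a fit of 18058 genes, while Mfap5 passed neither. The libraries are pools of mice, and the p-values measure the spread between these pools.

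The libraries held 24073311 to 31908525 counts. Tgfb1, the mouse counterpart of the transgene, stood at 50.6 to 61.7 CPM in WT, 339 to 361 CPM in OVE853 and 715 to 881 CPM in OVE918, in the order of the labels. The counts on Tgfb1 hold both the mouse gene's own reads and transgene reads that aligned to it, per the study's own description. All 7 markers of lens epithelium were detected in every library. WT replicate 3 stood apart from the other WT libraries, with summed CPM of 525 for 7 markers of retinal neurons and 121 for 7 markers of endothelium, against at most 82.0 and 33.4 in the other 9 libraries. Kdr alone gave 113 CPM of that endothelium sum. Esam was also highest in WT replicate 3, at 6.52 CPM, while Pecam1, Cdh5, Emcn and Cldn5 were at their lowest there. The endothelium sum therefore rests mostly on Kdr. Members and named pathway genes whose call rests on it are given with and without it.

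Of the LTBP genes, 1 was higher in both lines and 1 was lower in OVE918. Ltbp4 rose 2.29-fold in OVE853 and 2.93-fold in OVE918, and Ltbp2 fell 5.23-fold in OVE918. Ltbp3, the most abundant LTBP transcript per length, was lower in OVE918 by less than the minimum fold, and Ltbp1 was called in neither line.

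Ltbp4 (chromosome 7, 27004086 to 27037117, minus strand, GRCm39) encodes an LTBP that also takes part in elastic fiber assembly. It measured 6.08, 5.35 and 6.87 CPM in the WT libraries, 15.5, 13.2 and 13.1 CPM in OVE853, and 14.2, 20.5, 18.4 and 18.4 CPM in OVE918. All 7 transgenic libraries exceeded all 3 WT libraries, and the ranges of the 2 lines overlapped. The group means were 6.10 ± 0.763 CPM (SD, n = 3) in WT, 14.0 ± 1.34 (n = 3) in OVE853 and 17.9 ± 2.66 (n = 4) in OVE918. The log2 fold change over WT was 1.19 ± 0.16 (SE) in OVE853, with an edgeR FDR of 0.000703, and 1.55 ± 0.15 in OVE918, with an edgeR FDR of 5.45e-05. Between the lines it was 0.36 ± 0.14 with an edgeR FDR of 0.176, which did not pass the test.

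The expression filter favoured a rise of Ltbp4. By its unscaled FPKM, 0 WT libraries, 3 OVE853 libraries and 3 of the 4 OVE918 libraries reached 2 FPKM. With exon lengths over all transcripts, 4 libraries did so, too few to pass. In the filterByExpr fit, which sets a lower threshold, the log2 fold changes were 1.20 with an edgeR FDR of 0.00101 in OVE853 and 1.58 with an edgeR FDR of 8.00e-05 in OVE918. The deposited counts behind these values were 136 to 196 in WT, 357 to 513 in OVE853 and 331 to 551 in OVE918. Per length, Ltbp4 was the scarcest LTBP transcript in every library except OVE918 replicate 2, where Ltbp2 was lower (2.56 against 3.32 FPKM). Ltbp4 averaged 0.986 FPKM in WT, 2.25 FPKM in OVE853 and 2.89 FPKM in OVE918.

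Ltbp2 (chromosome 12, 84829986 to 84923306, minus strand) moved the other way. Its levels were 157, 108 and 169 CPM in WT, 94.6, 75.5 and 105 CPM in OVE853, and 29.4, 17.3, 41.9 and 22.1 CPM in OVE918. The 3 groups formed a sequence with no overlap, WT highest and OVE918 lowest. The means were 145 ± 32.5 CPM (SD, n = 3), 91.7 ± 15.0 (n = 3) and 27.7 ± 10.7 (n = 4). In OVE918 against WT the log2 fold change was -2.39 ± 0.28 with an edgeR FDR of 0.000244. In OVE853 against WT it was -0.66 ± 0.29 with an edgeR FDR of 0.138, a difference that did not pass although all 3 OVE853 libraries lay below the WT libraries. Between the lines, OVE918 was 3.31-fold lower than OVE853 (log2 fold change -1.73 ± 0.27, edgeR FDR 0.0250). That call was lost in 6 of 20 alternative settings, namely the omission of OVE853 replicate 1, 2 or 3 (edgeR FDR 0.105, 0.0621 and 0.138) or OVE918 replicate 1 or 4 (edgeR FDR 0.0666 and 0.0741), and testing with no filter (edgeR FDR 0.0618).

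The sequences before the transcription starts of these 2 genes are shown because they are the only members called, in opposite directions. Each run is the 250 bases upstream of an annotated start on GRCm39, 5′ to 3′ on the gene's minus strand, with starts taken from RefSeq windows of GRCm38.p6, placed on GRCm39 by their sequence, and from GENCODE. Capitals mark CAGAC and its reverse complement GTCTG, the core of the Smad binding element, the DNA motif of the transcription factors that act downstream of TGF-β receptors. Ltbp4 has 2 annotated starts.
Ltbp2, chr12:84923307-84923556: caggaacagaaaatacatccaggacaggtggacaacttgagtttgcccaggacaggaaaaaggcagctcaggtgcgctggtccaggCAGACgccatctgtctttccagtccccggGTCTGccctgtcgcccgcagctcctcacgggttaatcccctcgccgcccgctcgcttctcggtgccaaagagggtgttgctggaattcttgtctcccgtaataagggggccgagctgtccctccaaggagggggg
Ltbp4, first start, chr7:27037118-27037367: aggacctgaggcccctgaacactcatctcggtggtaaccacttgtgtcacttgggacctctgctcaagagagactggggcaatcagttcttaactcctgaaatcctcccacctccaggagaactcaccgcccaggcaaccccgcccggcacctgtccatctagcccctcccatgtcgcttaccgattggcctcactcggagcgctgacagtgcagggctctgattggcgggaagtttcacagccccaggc
Ltbp4, second start, chr7:27033113-27033362: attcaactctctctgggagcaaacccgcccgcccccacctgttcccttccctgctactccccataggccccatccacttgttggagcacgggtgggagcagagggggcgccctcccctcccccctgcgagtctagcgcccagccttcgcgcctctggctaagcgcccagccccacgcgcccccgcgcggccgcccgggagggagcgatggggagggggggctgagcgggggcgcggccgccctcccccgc

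The Ltbp2 sequence held 2 copies of CAGAC, counting both strands, and the 2 Ltbp4 sequences held 0. CAGAC occurs in 42.2% of the 32851 RefSeq windows (GRCm38.p6) of this length, so a match is common. The palindrome GTCTAGAC (0.167% of windows), the AP-1 motif TGANTCA (6.75%) and the TATA motif TATAAA (12.4%) were searched on both strands as well and had 0 matches in the 3 sequences. These are descriptions of letters in a window and say nothing of which factors bind there. All 250 bases of the Ltbp2 window and 68 of the first Ltbp4 window also lie in exons annotated on the opposite strand, and read pairs had been counted by strand. RefSeq windows were matched for 6 of the 9 genes.

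Ltbp3 (chromosome 19, 5790932 to 5808669, plus strand) encodes a latent TGF-β carrier best known for its role in bone and teeth. It measured 303, 278 and 260 CPM in WT, 224, 225 and 237 CPM in OVE853, and 159, 177, 175 and 185 CPM in OVE918. As for Ltbp2, the 3 groups did not overlap, and the order was the same. The means of 280 ± 21.4 CPM (SD, n = 3), 229 ± 7.25 (n = 3) and 174 ± 11.1 (n = 4) gave log2 fold changes over WT of -0.29 ± 0.09 (edgeR FDR 0.0572) in OVE853 and -0.69 ± 0.09 (edgeR FDR 0.000334) in OVE918. The OVE918 difference passed the FDR but was smaller than the minimum fold change, at 1.61-fold. Between the lines the value was -0.39 ± 0.09 with an edgeR FDR of 0.0580.

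Ltbp1 (chromosome 17, 75312519 to 75699507, plus strand) encodes the founding LTBP, which delivers latent TGF-β1 to the matrix. Its levels were 95.4, 61.1 and 64.1 CPM in WT, 84.3, 87.1 and 87.8 CPM in OVE853, and 75.0, 71.5, 82.9 and 65.2 CPM in OVE918. WT replicate 1 was the highest of all libraries and the WT range enclosed both lines. The log2 fold changes over WT were 0.23 ± 0.16 (edgeR FDR 0.312) in OVE853 and 0.00 ± 0.15 (edgeR FDR 0.992) in OVE918. All 4 OVE918 libraries lay below the 3 OVE853 libraries, by a log2 fold change of -0.23 ± 0.15 that did not pass (edgeR FDR 0.353).

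**Figure D1:**
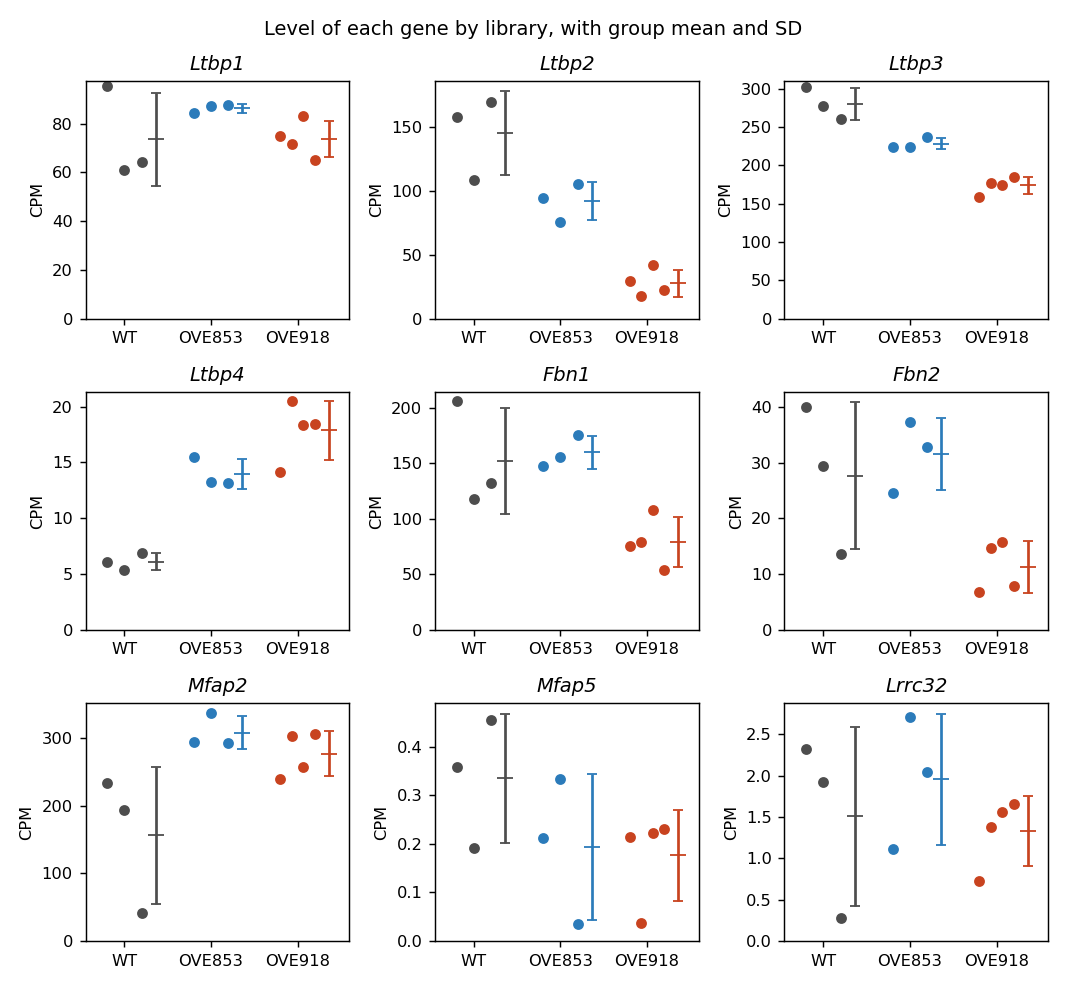
Each panel plots the level of 1 gene in CPM (linear axis from 0) by group, with 1 point per library and, at the right of the points, the group mean with its SD. Ltbp4 lies higher in all 7 transgenic libraries than in the 3 WT libraries, Ltbp2 and Ltbp3 lie in separate steps with WT highest and OVE918 lowest, and 1 WT library lies far below the others for Mfap2.

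Per length of transcript, the LTBP genes ranked Ltbp3, Ltbp2, Ltbp1, Ltbp4 in WT, with 51.6 ± 3.95, 21.4 ± 4.80, 13.2 ± 3.41 and 0.986 ± 0.123 FPKM (SD, n = 3). In OVE918 the middle places were exchanged, since Ltbp2 fell to 4.09 ± 1.58 FPKM while Ltbp1 stood at 13.2 ± 1.33 FPKM (n = 4). In OVE853 Ltbp1, at 15.5 ± 0.331 FPKM, and Ltbp2, at 13.5 ± 2.21 FPKM (n = 3), were neighbours whose ranges overlapped.

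Of the summed FPKM of the 4 genes, Ltbp2 made up 20.2 to 29.2% in WT, 15.9 to 20.1% in OVE853 and 7.77 ± 2.67% (SD, n = 4) in OVE918, where the highest library was under all OVE853 libraries. The share of Ltbp4 was 1.13 ± 0.147% in WT (n = 3), 3.08 ± 0.340% in OVE853 (n = 3) and 5.52 ± 0.763% in OVE918 (n = 4). Ltbp3 held 56.0 to 65.5% of the sum across all 10 libraries. The ratio of Ltbp2 to Ltbp4 FPKM was 21.6 ± 2.73 in WT, 6.03 ± 1.12 in OVE853 and 1.46 ± 0.627 in OVE918. In 1 OVE918 library the ratio was under 1, at 0.772. The summed FPKM of the 4 genes was 87.3 ± 9.24 in WT, 73.4 ± 3.41 in OVE853 and 52.3 ± 2.93 in OVE918. Without Ltbp2, the 3 genes whose products bind the TGF-β propeptide summed to 65.8 ± 7.12, 59.9 ± 1.44 and 48.2 ± 2.21 FPKM. These shares and sums describe the libraries and were not tested.

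**Figure D2:**
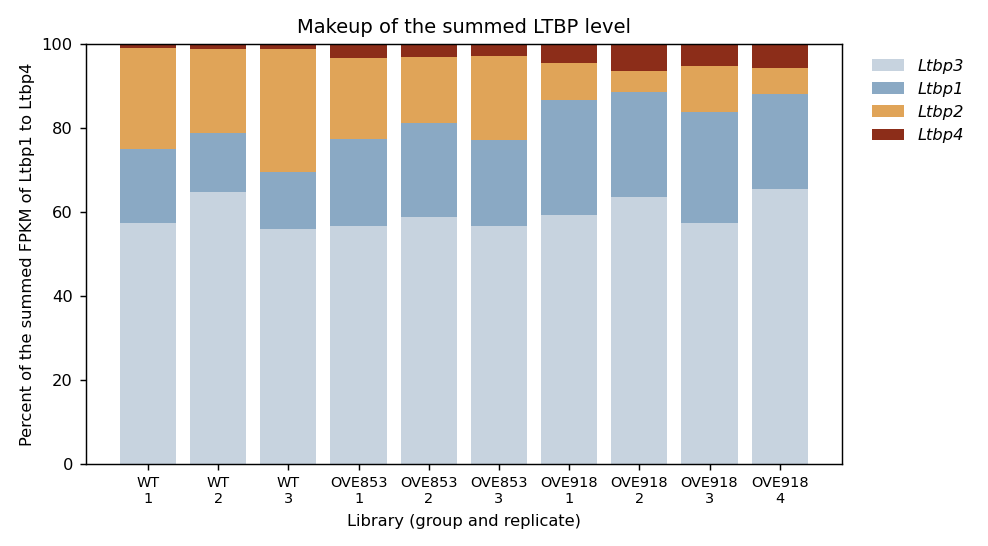
Stacked bars give the percent of the summed FPKM of Ltbp1 to Ltbp4 contributed by each gene, 1 bar per library, in the order WT, OVE853, OVE918. Ltbp3 forms at least 56.0% of every bar, while the Ltbp2 segment narrows and the Ltbp4 segment widens from the WT bars to the OVE918 bars.

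Lrrc32 (chromosome 7, 98138490 to 98151388, plus strand) encodes GARP, which holds latent TGF-β on the surface of regulatory T cells and platelets. It had 52, 50 and 8 counts in the WT libraries, 37, 73 and 60 in OVE853, and 17, 37, 42 and 36 in OVE918. The groups overlapped, and WT replicate 3 was the lowest library. The means were 1.51 ± 1.08 CPM (SD, n = 3), 1.96 ± 0.797 (n = 3) and 1.33 ± 0.419 (n = 4). In the filterByExpr fit the log2 fold changes were 0.38 ± 0.62 in OVE853 and -0.15 ± 0.59 in OVE918 against WT (edgeR FDR 0.702 and 0.886), and -0.53 ± 0.58 between the lines (edgeR FDR 0.657).

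Fbn1 and Fbn2 were lower in OVE918 than in OVE853, but no difference of either gene met both criteria. Fbn1 (chromosome 2, 125142514 to 125349913, minus strand), the main fibrillin of postnatal microfibrils, measured 206, 118 and 132 CPM in WT, 148, 155 and 176 CPM in OVE853, and 75.3, 79.3, 108 and 53.7 CPM in OVE918. Every OVE918 library lay below every library of the other groups, and the OVE853 libraries lay within the WT range. The means were 152 ± 47.6 CPM (SD, n = 3), 160 ± 14.5 (n = 3) and 79.1 ± 22.4 (n = 4). Against WT the log2 fold change in OVE918 was -0.94 ± 0.23 (edgeR FDR 0.0179), which passed the FDR and missed the minimum fold. Against OVE853 it was -1.01 ± 0.23 (edgeR FDR 0.0643), which passed the minimum fold and missed the FDR. In OVE853 against WT it was 0.07 ± 0.25 (edgeR FDR 0.861). Without WT replicate 3 both OVE918 differences were called, at log2 fold changes of -1.04 (edgeR FDR 0.0205) against WT and -1.01 (edgeR FDR 0.0409) against OVE853. The same held without OVE918 replicate 3, at -1.13 (edgeR FDR 0.00763) and -1.20 (edgeR FDR 0.0441). The difference from WT was also called without WT replicate 2, at -1.10 (edgeR FDR 0.0145), and that from OVE853 without WT replicate 1, at -1.01 (edgeR FDR 0.0374), or by DESeq2 (adjusted p = 0.00166).

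Fbn2, the fibrillin that predominates in embryonic tissue, was scarcer per length, at 1.63 ± 0.779 FPKM in WT against 12.7 ± 3.96 FPKM for Fbn1 (SD, n = 3). It measured 39.9, 29.4 and 13.6 CPM in WT, 24.5, 37.2 and 32.9 CPM in OVE853, and 6.77, 14.7, 15.8 and 7.80 CPM in OVE918. All OVE918 libraries lay below the OVE853 libraries, whereas WT replicate 3 fell among the OVE918 values. In the filterByExpr fit the log2 fold change of OVE918 was -1.27 ± 0.40 against WT (edgeR FDR 0.0553) and -1.46 ± 0.40 against OVE853 (edgeR FDR 0.123), and that of OVE853 against WT was 0.19 ± 0.42 (edgeR FDR 0.777). Without WT replicate 3 both OVE918 differences were called, at -1.61 (edgeR FDR 0.00928) and -1.44 (edgeR FDR 0.0420). The difference from WT was also called without robust estimation of the dispersion, at -1.27 (edgeR FDR 0.0425). DESeq2 called both with all libraries, at -1.28 (adjusted p = 0.00564) and -1.45 (adjusted p = 0.00528).

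The ratio of Fbn2 to Fbn1 FPKM was 0.0730 to 0.176 in WT, 0.117 to 0.169 in OVE853 and 0.0635 to 0.131 in OVE918, and the 3 ranges overlapped.

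Mfap2 (chromosome 4, 140737729 to 140743295, plus strand) was the most abundant of the 9 transcripts per length by the mean of each group. It encodes MAGP-1, a small glycoprotein bound to fibrillin that can also bind TGF-β. Its levels were 233, 193 and 41.5 CPM in WT, 294, 337 and 293 CPM in OVE853, and 239, 303, 258 and 306 CPM in OVE918. Every transgenic library exceeded every WT library, and WT replicate 3 lay far below the other 2 WT libraries. The means were 156 ± 101 CPM (SD, n = 3), 308 ± 24.8 (n = 3) and 276 ± 33.3 (n = 4). The log2 fold changes over WT, 0.98 ± 0.48 in OVE853 (edgeR FDR 0.184) and 0.83 ± 0.46 in OVE918 (edgeR FDR 0.245), did not pass. Without WT replicate 3 they became 0.53 (edgeR FDR 0.0356) and 0.37 (edgeR FDR 0.0914), so that the fold shrank and neither was called. Between the lines the value was -0.16 ± 0.44 (edgeR FDR 0.853).

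The place of Mfap2 at the top in WT depends on the exon length used, which is 1073 bases for the primary transcript and 3403 bases for all coding transcripts together. With the longer length its WT mean was 45.9 FPKM instead of 145 FPKM, under the 49.3 FPKM of Ltbp3 with lengths of the same kind. In OVE853 (90.5 against 40.2 FPKM) and OVE918 (81.2 against 30.6 FPKM) it was still above Ltbp3, as it was in WT with lengths over all transcripts (44.6 against 29.9 FPKM). The WT means of Mfap2 are lowered by WT replicate 3. There Mfap2 was under Ltbp3 even with the primary lengths (38.7 against 48.0 FPKM). The ratio of Mfap2 to Fbn1 FPKM was 3.52 to 18.3 in WT, 18.7 to 24.2 in OVE853 and 26.7 to 63.7 in OVE918, with no overlap between groups and no test. Mfap5 (chromosome 6, 122470878 to 122508875, plus strand), whose product is the second microfibril-associated glycoprotein, had 8, 5 and 13 counts in WT, 7, 9 and 1 in OVE853, and 5, 1, 6 and 5 in OVE918. It was under both filters and was not tested in either fit. Fitted with no filter, it was called in no comparison.

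**Figure D3:**
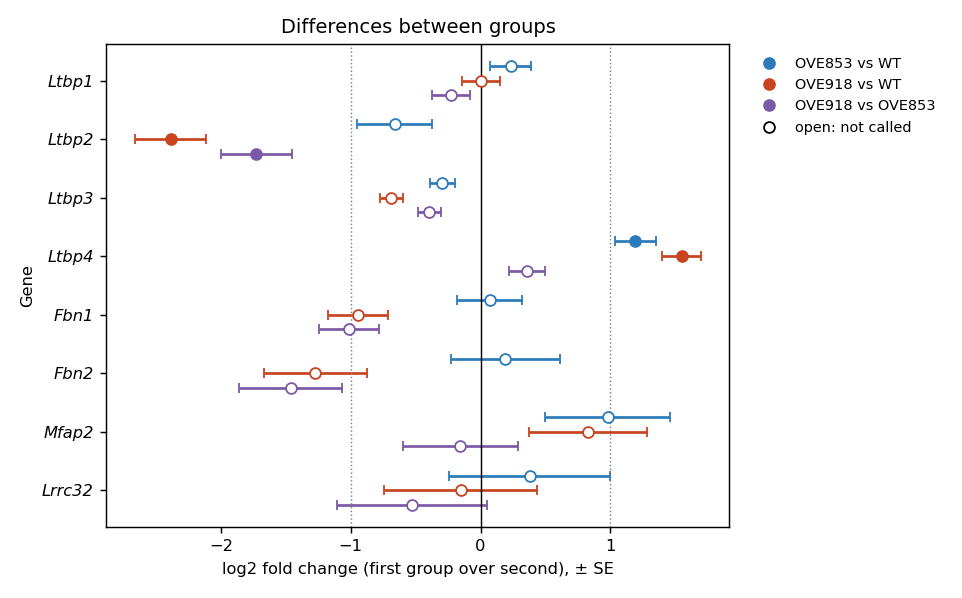
Points give the log2 fold change of 8 genes with its SE, filled where called and open where not, for OVE853 against WT, OVE918 against WT and OVE918 against OVE853, with dotted lines at the minimum fold. Filled points are seen for Ltbp4 in both lines against WT and for Ltbp2 in OVE918 against either group. Fbn2 and Lrrc32 come from the filterByExpr fit.

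Counted over the comparisons, 1 of the 6 genes that passed the filter was called in OVE853 against WT, where 4.43% of all tested genes were called. In OVE918 against WT, 2 of 6 were called against 5.59% of all tested genes. Between the lines, 1 of 6 was called against 0.487%. By the FDR alone the numbers were 1, 4 and 1 of 6, against 15.8%, 19% and 1.32% of tested genes. Both comparisons with WT share the same 3 WT libraries. Ltbp4 is among the genes called against WT, and it passed the filter only through the transgenic libraries. The counts and medians against WT, here and below, thus hold a gene admitted by the groups where it is high.

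Groups without overlap were common among all genes, so they carry little weight alone. In OVE853 against WT, 4 of the 6 genes did not overlap (Ltbp4 and Mfap2 higher, Ltbp2 and Ltbp3 lower), against 45.4% of tested genes. In OVE918 against WT, 5 of 6 did not overlap (the same 2 higher, and Ltbp2, Ltbp3 and Fbn1 lower), against 27.2%. Between the lines, 4 of 6 did not overlap, all lower in OVE918, against 29.5% of tested genes in either direction and 16.2% lower. The 6 genes had a median log2 fold change of 0.15, -0.34 and -0.31 in the 3 comparisons, and that of all tested genes was -0.01, 0.01 and -0.02.

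In OVE918, the lower levels of Ltbp2, Fbn1 and Fbn2 went with lower markers of the non-pigmented ciliary epithelium. This cell layer adjoins the lens equator and secretes zonule components. In OVE853 the markers were lower than in WT too, but the means of Fbn1 and Fbn2 were not. The summed CPM of 8 such markers was 936 to 2024 in WT, 503 to 557 in OVE853 and 129 to 257 in OVE918, and none of the 8 was at 0. Of the 8 markers, 6 were called lower in OVE853 against WT, 8 in OVE918 against WT and 5 between the lines. Of all tested genes, 4.43%, 5.59% and 0.487% were called, in either direction. The markers were chosen with earlier results of these data known. The study itself reported Best2, Optc, Wfdc1, Slc6a13 and Col9a3 as reduced in both lines, so these calls are no separate support. Optc, which encodes the small proteoglycan opticin, measured 388 to 873 CPM in WT, 168 to 246 CPM in OVE853 and 40.3 to 98.7 CPM in OVE918. The part of these cells in the levels of Ltbp2, Fbn1 and Fbn2 was not tested. In bulk tissue, fewer cells of a type and less RNA per cell cannot be told apart.

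Within groups the match was partial. The OVE918 library with the highest marker sum (replicate 3, 257 CPM) also had the highest Ltbp2 (41.9 CPM), Fbn1 (108 CPM) and Fbn2 (15.8 CPM) of that group. The OVE918 library with the lowest marker sum (replicate 2, 129 CPM) had the lowest Ltbp2 but not the lowest Fbn1 or Fbn2. In WT the highest marker sum (replicate 1, 2024 CPM) went with the highest Fbn1 and Fbn2, while the highest Ltbp2 (169 CPM) was in replicate 3, which had the lowest marker sum of that group. In OVE853 the marker sum lay below all WT libraries while Fbn1 and Fbn2 lay within their WT ranges.

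**Figure D4:**
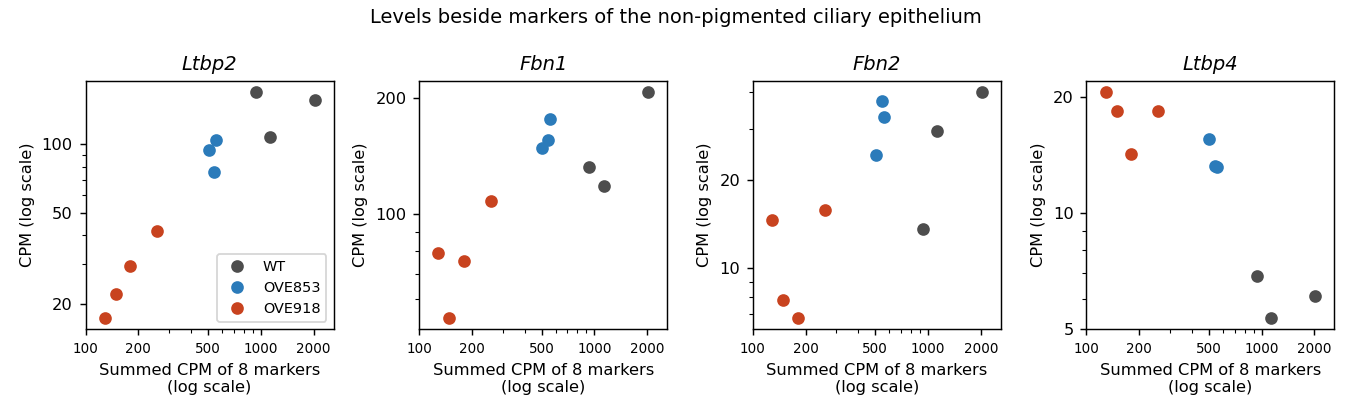
The CPM of Ltbp2, Fbn1, Fbn2 and Ltbp4 (log axes) is plotted against the summed CPM of 8 markers of the non-pigmented ciliary epithelium, 1 point per library and coloured by group. Marker sums run from 129 to 257 in OVE918, 503 to 557 in OVE853 and 936 to 2024 in WT. Ltbp2 is lowest in OVE918, where the marker sums are lowest, and Ltbp4 is lowest in WT, where they are highest.

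Ltbp4, called higher in both lines, and Mfap2, higher in every transgenic library but not called, were set beside markers of mesenchymal and vascular cells. The summed CPM of 5 fibroblast markers was 317 to 592 in WT, 949 to 1047 in OVE853 and 545 to 796 in OVE918. These sums were almost all Pdgfra and Col6a3. Col3a1, Lum and Dcn stayed at 3.60 CPM or less in every library, and Dcn was highest in WT replicate 3, at 2.35 CPM. The sums thus rest on Pdgfra and Col6a3 and not on the list as a whole. They were highest in OVE853, the group with the highest mean of Mfap2, while the mean of Ltbp4 was highest in OVE918. The sum of 5 pericyte markers was 14.6 to 47.1 CPM in WT, 41.7 to 48.4 CPM in OVE853 and 24.3 to 41.4 CPM in OVE918. Within it, Cspg4 was 0.701 to 1.65 CPM in WT and 3.85 to 11.3 CPM in the lines. Notch3 was 4.94 to 22.6 CPM in WT and 3.69 to 17.6 CPM in the lines. The sum of 8 macrophage markers was 16.0 to 41.3, 37.9 to 59.9 and 26.1 to 67.1 CPM. Its members did not move alike. C1qa was 3.46 to 9.68 CPM in WT and 8.16 to 23.1 CPM in the lines. Mrc1 was 1.54 to 4.25 CPM in WT and 0.112 to 0.461 CPM in the lines. Every other marker of this list overlapped between WT and the lines, as C1qa did. Whether such cells had a part in the levels of Ltbp4 and Mfap2 was not tested.

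The genes whose log2 CPM followed each member most closely over the 10 libraries were sought among all tested genes, by Pearson's r and as a description, since all points share the groups and their depth. Ltbp2 was followed most closely by Col9a2 (r = 0.989), which is itself one of the ciliary markers, and Prelp (r = 0.987), a matrix proteoglycan gene. Fbn1 was followed by Adamts10 (r = 0.965), whose product binds fibrillin-1, and Sned1 (r = 0.958). Ltbp4 was followed by Nampt (r = 0.987), an enzyme gene of NAD synthesis, and Spry1 (r = 0.987), an inhibitor of receptor tyrosine kinase signaling. Mfap2 was followed by Hmga2 (r = 0.992) and Igf2bp3 (r = 0.992), which are best known from fetal tissue. Ltbp3 was followed by Ubtd2 and Cmtm6 (r = 0.978 each), and Ltbp1, with the lowest values, by Zfp260 and Gna13 (r = 0.930 each).

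The wider pathway was taken from 4 lists of 45 genes in all, of which 29 passed the filter. Called genes numbered 7 in OVE853 against WT, all higher, 8 in OVE918 against WT, 5 higher and 3 lower, and 2 between the lines, 1 each way. These are 7 of 29, 8 of 29 and 2 of 29, beside 4.43%, 5.59% and 0.487% of all tested genes. All of these counts include Tgfb1, whose reads hold those of the transgene. Between the lines it is the 1 gene called higher. The counts against WT also include Tgm2 and Fn1, which reached 2 FPKM in no WT library. Itgb8, among the 29 but not called, reached it in no WT library either. The 29 genes had medians of 0.35, 0.14 and -0.19 on the log2 scale in the 3 comparisons.

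Of the 3 ligand genes, Tgfb1 was called in all 3 comparisons, with log2 fold changes of 2.69 ± 0.13 and 3.83 ± 0.13 over WT and 1.15 ± 0.11 between the lines (edgeR FDR 7.08e-07, 1.03e-07 and 0.00388), transgene reads included. Tgfb2, the most abundant TGF-β transcript per length in WT, was at 291 ± 23.2 CPM in WT (SD, n = 3), 253 ± 5.51 in OVE853 (n = 3) and 243 ± 13.7 in OVE918 (n = 4) and was called in no comparison. Tgfb3 measured 17.2 to 22.5 CPM in WT, 23.0 to 25.2 CPM in OVE853 and 21.0 to 36.3 CPM in OVE918, and its log2 fold change of 0.57 in OVE918 passed the FDR (0.0385, edgeR) but not the minimum fold.

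Of 18 genes for anchoring and release of latent TGF-β, 11 passed the filter and 2 were called, both higher in each line against WT. Tgm2, the transglutaminase that cross-links LTBP1 into the matrix, rose from 3.95 ± 2.69 CPM in WT to 14.8 ± 3.85 in OVE853 and 23.1 ± 3.63 in OVE918, at log2 fold changes of 1.89 ± 0.38 and 2.53 ± 0.38 (edgeR FDR 0.0103 and 0.00108). No WT library reached 2 FPKM for Tgm2, so it passed the FPKM filter through the transgenic libraries, and in the filterByExpr fit its values were 1.91 ± 0.39 and 2.57 ± 0.38 (edgeR FDR 0.0123 and 0.00136). Mmp2, a gelatinase, rose from 7.99 ± 3.17 CPM to 21.0 ± 2.91 and 28.8 ± 9.67 CPM, at 1.40 ± 0.33 and 1.86 ± 0.32 (edgeR FDR 0.0179 and 0.00244). Bmp1, whose protease cuts LTBP1, passed the FDR in both lines (0.00326 and 0.000983, edgeR) under the minimum fold, at 0.86 ± 0.14 and 0.91 ± 0.14. The integrin genes Itgav, Itgb1, Itgb5 and Itgb8, whose products bind the TGF-β propeptide, were called in no comparison. Itgb8 in OVE918 against WT passed the FDR (0.0489, edgeR) under the minimum fold, at 0.77 ± 0.24. No WT library reached 2 FPKM for Itgb8 either, so it too passed the FPKM filter through the transgenic libraries.

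Partners of elastic fibers and microfibrils split in direction. Of 15 genes, 11 passed the filter, and in OVE918 against WT 2 were called higher and 3 lower. Fn1, the fibronectin to which LTBPs are first tethered, rose from 14.9 ± 1.15 CPM in WT to 50.7 ± 11.6 in OVE853 and 85.3 ± 17.2 in OVE918 (log2 fold changes 1.77 ± 0.20 and 2.52 ± 0.20, edgeR FDR 0.000257 and 1.27e-05). It too reached 2 FPKM in no WT library, and with filterByExpr the values were 1.78 ± 0.20 and 2.54 ± 0.20 (edgeR FDR 0.000438 and 2.42e-05). Fbln2, the gene of the microfibril-binding fibulin-2, rose from 23.0 ± 15.8 CPM to 95.7 ± 35.9 and 178 ± 50.2 CPM (2.06 ± 0.53 and 2.95 ± 0.53, edgeR FDR 0.0327 and 0.00492).

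The 3 genes called lower in OVE918 were Fbln1 (fibulin-1), Efemp1 (fibulin-3) and Mfap4, a microfibril-associated gene. Fbln1 measured 634, 378 and 481 CPM in WT, 379, 338 and 336 CPM in OVE853, and 148, 108, 190 and 119 CPM in OVE918. It was lower in OVE918 than in both other groups, at -1.82 ± 0.21 against WT (edgeR FDR 0.000166) and -1.31 ± 0.21 against OVE853 (edgeR FDR 0.0243), as Ltbp2 was. Efemp1 fell by 2.22 on the log2 scale in OVE918 against WT (SE 0.46, edgeR FDR 0.00951), and its highest value, 136 CPM, was in WT replicate 3. Without that library its difference was -1.63 (edgeR FDR 0.0197) against WT and was also called against OVE853, at -1.53 (edgeR FDR 0.0476), which with all libraries had an FDR of 0.112. Mfap4 fell 2.02-fold (edgeR FDR 0.00110), while in OVE853 its difference of -0.83 ± 0.17 passed the FDR alone (0.00932, edgeR). In the filterByExpr fit Mfap4 in OVE918 was at -0.99 (edgeR FDR 0.00180), just under the minimum fold.

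Of 9 fibrillin-binding ADAMTS and ADAMTSL genes, 4 passed the filter. Adamtsl4, whose product binds fibrillin-1 in the zonule, rose in OVE853 from 106 ± 42.5 CPM in WT to 239 ± 20.3 CPM (log2 fold change 1.17 ± 0.27, edgeR FDR 0.0177). In OVE918 it stood at 198 ± 34.9 CPM, where a difference of 0.90 ± 0.26 passed the FDR (0.0342, edgeR) but not the minimum fold. Adamts6, a protease gene, rose in OVE853 (1.07 ± 0.30, edgeR FDR 0.0394) and was at 0.57 ± 0.28 in OVE918 (edgeR FDR 0.190). WT replicate 3 was the lowest library for both genes, at 57.2 and 19.3 CPM. Without it neither was called in OVE853, Adamtsl4 at 0.87 (edgeR FDR 0.00540) and Adamts6 at 0.78 (edgeR FDR 0.0513).

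Another 14 pathway genes were under the FPKM filter but in the filterByExpr fit, in which 6.89% (OVE853) and 8.79% (OVE918) of all genes were called against WT. There 3 of the 14 were called higher in OVE853 against WT (Lox, Emilin2 and Adamtsl3), and in OVE918 against WT 6 were higher (the same 3, Plau, Adamts17 and Adamts19) and 1 lower (Fbln5). These numbers hold genes admitted by the groups where they are high. Among them are Adamts19, with 0 to 1 counts in WT and 21 to 161 in OVE918, and Adamtsl3, with 5 to 23 in WT and 192 to 287 in OVE853. Lox, which encodes the lysyl oxidase that cross-links elastin, stood at 0.889 ± 0.431 CPM in WT, 3.34 ± 0.251 in OVE853 and 3.77 ± 0.926 in OVE918 (log2 fold changes 1.92 ± 0.34 and 2.11 ± 0.33, edgeR FDR 0.00588 and 0.00156). Adamtsl3 rose from 0.433 ± 0.324 CPM to 8.21 ± 0.954 and 8.15 ± 2.89 CPM (4.21 ± 0.46 and 4.21 ± 0.45, edgeR FDR 0.000322 and 0.000148).

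**Figure D5:**
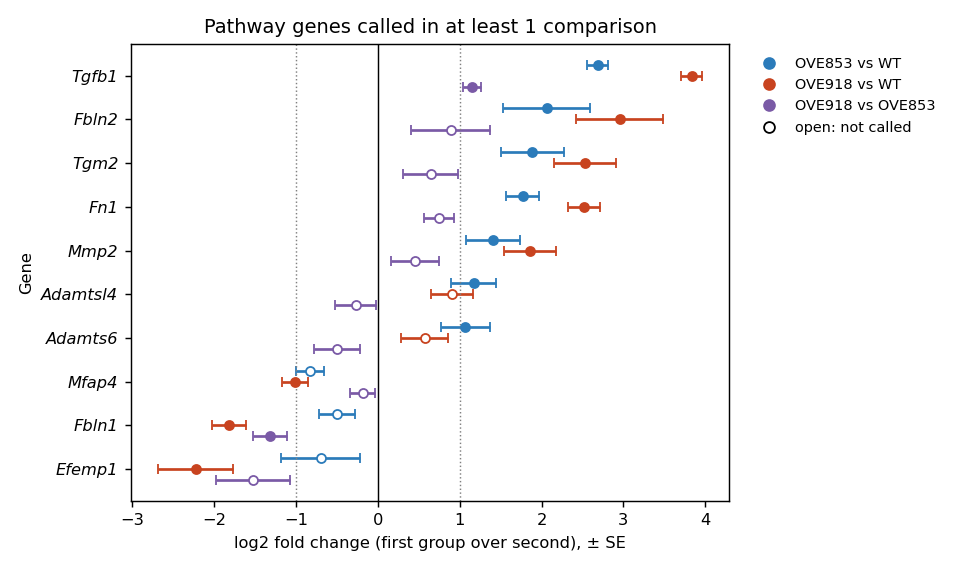
Points give the log2 fold change with its SE of the 10 listed genes that passed the FPKM filter and were called in at least 1 comparison, filled where called and open where not, with dotted lines at the minimum fold. Tgfb1, Fbln2, Tgm2, Fn1 and Mmp2 are higher in both lines, and Fbln1, Efemp1 and Mfap4 are called lower in OVE918.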

How the data were processed

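RNA-seq libraries of paired reads had been made from 10 pools of lens epithelium. According to the labels and the study's methods, trimming was by cutadapt 5.2, alignment to mm39 (GRCm39) by STAR 2.7.11b, and counting of read pairs per gene, by strand, by featureCounts 2.0.8. The authors deposited these values as raw counts, without normalization, for 50763 genes in 10 columns. Groups came from the sample labels.

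Differences were fitted to the counts with edgeR 4.0.16 in R 4.3.3 (TMM, robust quasi-likelihood fit of 3 groups), and with DESeq2 1.42.0 as an alternative. SEs were derived from the log2 fold change and the F statistic. For FPKM, gene symbols were matched to the exons of primary transcripts in GENCODE vM39; 7489 genes had no length and were not tested, and the authors' RefSeq lengths were not used here. Depth of 24073311 to 31908525 counts limits the scarce genes most. The statistics were tested on simulated data. The 9 genes, the lists, the exon lengths and the tests were chosen with earlier results of these data known. All 9 genes are described; of the lists, the TGF-β ligands, called genes and a few background genes that were not called are named, the last chosen after their values were seen, and for each tested member the 2 genes of highest r. Alternatives were DESeq2, other scalings, filters, terms, groups in the fit, and leaving out each library.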

Additional observations from a re-analysis of the deposited data

Results flagged for a closer look

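Mfap5 in OVE918 had 1 library, replicate 2, that lay apart from the other 3 by Dixon's criterion for 4 samples, at 0.0372 CPM. This is 1 count against 5, 6 and 5, for a gene under both filters. In this way 1 of 9 groups of 4 was marked. Chance marks about 1 in 20, so 1 mark among 9 groups can arise by chance.

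Ltbp2 differed between the lines in its distance from WT, as tested by OVE918 against OVE853, with a log2 fold change of -1.73 and an edgeR FDR of 0.0250.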

How the results depend on the processing

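Ltbp4 was called in both lines against WT in all 20 alternatives (log2 fold change 1.10 to 1.29 and 1.46 to 1.65), and Ltbp2 in OVE918 against WT in all 20 (-2.66 to -2.22). Ltbp2 between the lines (log2 fold change -1.56 at the smallest) was called in 14 of 20. Of 468 alternative values of the members, 437 kept direction and call, 12 passed newly, 6 lost the call and 13 changed sign, and none of the last was called. Fbn1 in OVE918 was called against WT without WT replicate 2, WT replicate 3 or OVE918 replicate 3, and against OVE853 with DESeq2 or without WT replicate 1, WT replicate 3 or OVE918 replicate 3. The sign changes were Fbn1 in OVE853 against WT (-0.091, -0.023 and -0.012 without WT replicate 2, WT replicate 3 or OVE853 replicate 3, range over omitted libraries -0.091 to 0.35), Fbn2 in OVE853 (-0.17 without WT replicate 3, range -0.17 to 0.56), Lrrc32 in OVE853 (-0.16 without WT replicate 3, range -0.16 to 0.83), Ltbp1 in OVE918 (range -0.12 to 0.23) and Lrrc32 in OVE918 (range -0.67 to 0.30, and 0.16 with the R number, a library number in the authors' script, as a term). Mfap5 was fitted only with no filter, where it was called in no comparison.

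Members called in OVE918 against WT numbered 4 without a minimum fold and 2 to 3 with a library left out. Between the lines they numbered 2 with DESeq2, 0 with no filter and 0 to 2 with a library left out, 0 being without any OVE853 library or OVE918 replicates 1 or 4. In OVE853 against WT the number was 1 throughout. Pathway genes called in OVE853 against WT were 4 when only those groups were fitted and 3 to 7 with a library left out, the lowest being without OVE853 replicate 1 or 3. In OVE918 against WT they were 13 without a minimum fold, 14 with filterByExpr, 14 with no filter and 7 to 9 with a library left out. Between the lines they were 1 to 3 with a library left out. Over all genes, calls in OVE853 against WT were 491, with 1751 without a minimum fold, 1244 with filterByExpr, 1061 with no filter and 334 to 664 with a library left out. In OVE918 against WT they were 620, with 2110, 1587 and 1548 in the same order and 522 to 728. Between the lines they were 54, with 146 without a minimum fold, 107 with DESeq2, 97 when only those groups were fitted, 33 with the R number as a term and 6 to 93 with a library left out, the lowest being without OVE853 replicate 1. Same-numbered libraries did not deviate together (correlations of -0.303 to 0.084), so the numbers do not pair them. The replicate block gave 441, 538 and 28 called genes in the 3 comparisons and 1, 2 and 1 called members. Pools of 3 to 4 per group limit what differences can be seen.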

Other observations

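Mfap2 and the genes that followed it most closely were all at their lowest in WT replicate 3. Hmga2 and Igf2bp3 were picked for their high r with Mfap2 over these same libraries, so their low values there follow from the choice. Hmga2 measured 15.9, 12.7 and 0.210 CPM in the WT libraries, 37.1 to 45.3 CPM in OVE853 and 20.5 to 37.1 CPM in OVE918. Igf2bp3 measured 6.66, 4.04 and 0 CPM in WT, 14.0 to 16.8 CPM in OVE853 and 8.95 to 15.3 CPM in OVE918. Emilin1, a gene of microfibril partners, had the same low library, with 72.5, 52.9 and 12.3 CPM in WT against 45.6 to 74.0 CPM in the transgenic libraries.

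The levels of Nampt and Spry1, which followed Ltbp4 most closely, were 38.5 to 39.7 and 14.3 to 16.4 CPM in WT, and 105 to 165 and 38.0 to 62.9 CPM in the transgenic libraries. Neither gene had a transgenic library within the WT range. Both were picked for their high r with Ltbp4, whose transgenic libraries all exceeded WT, so this separation follows from the choice.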
